A study of Mus musculus with 18 samples.

Results

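The 7 genes examined here encode the MHC class II presentation machinery: the classical chains H2-Aa, H2-Ab1 and H2-Eb1, the invariant chain Cd74, the peptide editor subunits H2-DMa and H2-DMb1, and the class II transactivator Ciita. They were picked by symbol, and all 7 were among the 30172 genes listed for every library. Poly-A RNA of whole ovaries was measured in female F1 offspring of C57BL/6J wild type mice at postnatal day (Pd) 3, 7 and 21. The F1-HHcy group was born to dams kept on a diet of 3% methionine from before mating through gestation and lactation, which induces hyperhomocysteinemia (HHcy). The F1-Control group was born to dams on normal chow, and the pups themselves were not treated in either group. Each of the 6 groups of diet and day had 3 libraries, 18 in all, and how many ovaries or pups went into a library is not stated. P-values therefore measure the spread between these libraries, which may in part be technical. Pd3 and Pd7 belonged to batch 1 and Pd21 to batch 2, so each comparison of diets lay within a batch, while age and batch cannot be told apart wherever Pd21 is set against a younger day.

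MHC class II molecules display peptides from the endocytic pathway to CD4+ T cells. An alpha and a beta chain assemble in the endoplasmic reticulum on the invariant chain, which fills the groove and guides the complex to endosomes, where cathepsins trim it to a short peptide and the H2-DM dimer exchanges that peptide for others. Expression is mostly restricted to professional antigen-presenting cells, meaning dendritic cells, B cells and a part of the macrophages, which in the ovary lie in the stroma and around follicles. Interferon gamma can induce it in other cells through Ciita, a coactivator that binds no DNA itself but docks on factors at the X and Y boxes of class II promoters. C57BL/6 mice carry a defective alpha chain gene of the I-E isotype, so H2-Eb1 transcripts in this strain do not lead to a normal I-E dimer.

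Of the 7 genes, 5 lie in the MHC on chromosome 17 of GRCm38 by RefSeq, namely H2-Ab1 (chr17:34263227-34269418), H2-Aa (chr17:34282744-34287823), H2-Eb1 (chr17:34305867-34316674), H2-DMa (chr17:34119693-34139101) and H2-DMb1 (chr17:34153191-34160229). Ciita lies on chromosome 16 (chr16:10480014-10531064). RefSeq promoters, which span 250 bases before to 50 bases after a gene's start, were at hand for 4 of the 7 genes. The Y box letters TGATTGG stood in the promoters of 3 of them, at 50 bases before the start of H2-Aa, 61 before that of H2-Eb1 and 63 before that of H2-DMb1, each time on the strand of the gene. They occurred on either strand in 7.82% of 32851 RefSeq promoters and in neither of the 2 listed promoters of H2-DMa. Stretches of 87 bases around the Y box are shown because this is where the class II genes measured below share a promoter element, with the Y box letters in capitals and each sequence 5′ to 3′ on the strand of its gene (GRCm38.p6; H2-Aa minus strand, chr17:34287847-34287933; H2-Eb1 plus strand, chr17:34305746-34305832; H2-DMb1 plus strand, chr17:34153068-34153154).
H2-Aa: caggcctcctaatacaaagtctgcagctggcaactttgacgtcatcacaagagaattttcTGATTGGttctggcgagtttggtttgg
H2-Eb1: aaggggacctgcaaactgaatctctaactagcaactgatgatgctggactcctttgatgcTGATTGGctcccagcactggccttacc
H2-DMb1: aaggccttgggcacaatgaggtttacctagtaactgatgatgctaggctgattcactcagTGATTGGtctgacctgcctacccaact
The X box letters ACAGATG were found on the opposite strand of the H2-Aa promoter, 232 bases before the start, against 5.01% of all promoters. They were in no other promoter at hand for the 4 genes. The letters ACTGATG, searched only after the promoters had been read, stood upstream of the Y box in H2-Eb1 (88 bases before the start) and H2-DMb1 (91 bases before it), against 3.19% of all promoters. The interferon gamma site letters TTCNNNGAA, held by 8.3% of all promoters, were in none of the promoters at hand for the 4 genes. Promoters of H2-Ab1, Cd74 and Ciita were not searched. None of the matches overlapped another. They describe letters only, and no binding was measured.

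The genes differed widely in level. Levels are given as FPKM, fragments scaled by the length of the gene and by the fragments that the library had on genes, and 33630547 to 39399215 fragments per library stood behind them. Cd74 had the highest mean of the 7 over the 18 libraries (17.2 FPKM), followed by H2-Aa (9.56), H2-Ab1 (7.67), H2-Eb1 (5.60), H2-DMb1 (1.88), H2-DMa (0.488) and Ciita (0.0721). Cd74 thus stood on 201 to 4220 fragments per library and Ciita on only 7 to 73. Values of H2-DMa divide by a length of 8325 bases against 1128 to 1669 bases for the classical chains, H2-DMb1 and Cd74, and its RefSeq span overlaps Brd2 on the other strand, which measured 29.9 to 50.4 FPKM. Whether the counting used strand is not given in the sources used here, so fragments of H2-DMa and Brd2 may have been mixed, and the level of H2-DMa was not ranked against the others any further. The span of Ciita likewise overlaps Dexi on the other strand and that of H2-Eb1 the antisense gene Gm20513 of the GENCODE annotation, so their fragments may have been mixed too. H2-DMb1 has a close copy, H2-DMb2 (0 to 0.671 FPKM), with which it can share reads.

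**Figure D1:**
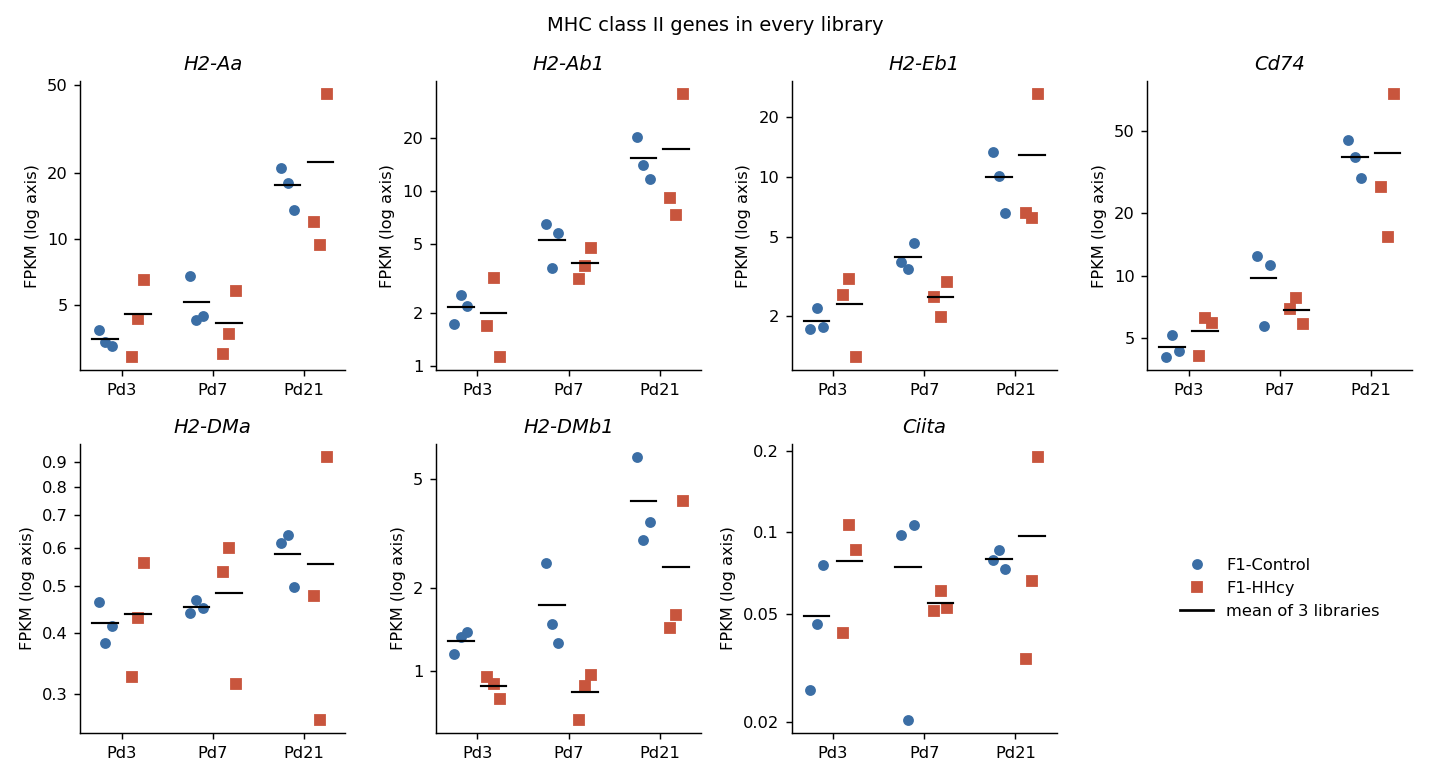
FPKM on a log axis of the 7 genes in each of the 18 libraries, by postnatal day and diet group (circles, F1-Control; squares, F1-HHcy; black line, mean of 3 libraries). H2-Aa, H2-Ab1, H2-Eb1, Cd74 and H2-DMb1 have their highest group means at Pd21, and replicate 3 of F1-HHcy at Pd21 lies above the other 2 F1-HHcy libraries of that day in all 7 panels.

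Replicate 3 of F1-HHcy at Pd21 and replicate 3 of F1-HHcy at Pd3 stood apart from the other libraries of their groups. The first was 3.89 times the mean of its group's other libraries in the summed FPKM of the 7 genes, and the second combined a high H2-Aa with a low H2-Ab1 and held 66.7 FPKM of the interferon-induced chemokine gene Cxcl10, against 2.96 and 2.15 FPKM in replicates 1 and 2. Hemoglobin genes took 0.0066% to 0.672% of the fragments and mitochondrial genes 2.23% to 5.77%.

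The first question was how class II expression changed while the ovary matured. Between Pd7 and Pd21 the 3 classical chains, Cd74 and H2-DMb1 rose in both diet groups, and these 5 of the 7 genes were the ones that could be tested, since they reached 1 FPKM in 3 or more of the 18 libraries. Cd74 (chr18:60803849-60812652 of GRCm38), the chaperone of the nascent dimer, rose from 9.77 ± 3.57 to 37.5 ± 7.79 FPKM in F1-Control ovaries (SD, n = 3), a 3.84-fold ratio of the means, and from 6.83 ± 0.991 to 39.3 ± 32.0 FPKM in F1-HHcy ovaries, a 5.76-fold ratio. Without replicate 3 of F1-HHcy at Pd21, left out after seeing the data, the mean of Cd74 there was 21.2 FPKM and the ratio 3.10-fold. H2-DMa and Ciita stayed below this filter. Pd21 was also the other batch, and in RNA of whole ovaries the number of cells of a type and the RNA per cell cannot be told apart.

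In F1-Control ovaries Cd74 measured 4.03, 5.17 and 4.31 FPKM at Pd3, 12.4, 5.72 and 11.2 at Pd7, with 45.3, 37.5 and 29.8 at Pd21. In F1-HHcy ovaries it measured 4.07, 6.23 and 5.90 FPKM at Pd3, 6.88, 7.80 and 5.82 at Pd7, with 26.9, 15.4 and 75.7 at Pd21. Every Pd21 library lay above every younger library. The fit of all 6 groups on log2(FPKM + 1) with limma gave a log2 fold change at Pd21 against Pd7 of 1.88 ± 0.39 (SE) with an adjusted p of 0.00204 in F1-Control and of 2.07 ± 0.39 with an adjusted p of 0.00336 in F1-HHcy.

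H2-Aa, the alpha chain of I-A, measured 3.85, 3.41 and 3.26 FPKM at Pd3, 6.78, 4.29 and 4.46 at Pd7, with 21.1, 18 and 13.5 at Pd21 in F1-Control ovaries. The F1-HHcy libraries held 2.91, 4.33 and 6.53 FPKM at Pd3, 3.01, 3.72 and 5.79 at Pd7, with 12.0, 9.41 and 45.6 at Pd21. The Pd21 libraries again stood apart from both younger days without overlap. Their log2 fold change against Pd7 was 1.59 ± 0.40 in F1-Control (limma adjusted p = 0.00781) and 1.87 ± 0.40 in F1-HHcy (adjusted p = 0.00719).

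H2-Ab1, the beta chain that pairs with H2-Aa, measured 1.74, 2.55 and 2.20 FPKM at Pd3, 6.46, 3.60 and 5.73 at Pd7, with 20.4, 14.1 and 11.7 at Pd21 in F1-Control ovaries. In F1-HHcy ovaries the values were 1.69, 3.18 and 1.12 at Pd3, 3.15, 3.74 and 4.70 at Pd7, with 9.07, 7.33 and 35.8 at Pd21. In the F1-Control group all Pd7 libraries lay above all Pd3 libraries and all Pd21 libraries above those of Pd7. In the F1-HHcy group the lowest Pd7 library (3.15) fell just below the highest Pd3 library (3.18). The log2 fold change of Pd21 against Pd7 was 1.38 ± 0.41 in F1-Control (limma adjusted p = 0.0181) and 1.59 ± 0.41 in F1-HHcy (adjusted p = 0.015).

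H2-Eb1, the beta chain of I-E, measured 1.72, 2.21 and 1.77 FPKM at Pd3, 3.76, 3.44 and 4.68 at Pd7, with 13.3, 10.1 and 6.58 at Pd21 in F1-Control ovaries. In F1-HHcy ovaries it measured 2.56, 3.07 and 1.25 at Pd3, 2.49, 1.98 and 2.99 at Pd7, with 6.58, 6.25 and 26.0 at Pd21. The days stood in the same order without overlap in F1-Control ovaries, whereas Pd3 and Pd7 overlapped in F1-HHcy ovaries. The log2 fold change of Pd21 against Pd7 was 1.11 ± 0.38 in F1-Control (limma adjusted p = 0.0358) and 1.72 ± 0.38 in F1-HHcy (adjusted p = 0.00767).

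H2-DMb1, the beta subunit of the peptide editor, measured 1.15, 1.33 and 1.38 FPKM at Pd3, 2.47, 1.48 and 1.26 at Pd7, with 6.00, 2.99 and 3.49 at Pd21 in F1-Control ovaries. In F1-HHcy ovaries the values were 0.945, 0.891 and 0.791 at Pd3, 0.662, 0.880 and 0.967 at Pd7, with 1.43, 1.60 and 4.13 at Pd21. None of the F1-HHcy libraries of Pd3 and Pd7 reached 1 FPKM. The log2 fold change of Pd21 against Pd7 was 0.90 ± 0.25 in F1-Control (limma adjusted p = 0.014) and 0.80 ± 0.25 in F1-HHcy (adjusted p = 0.0369). Adding 1 to the FPKM shrinks fold changes at such levels, and the ratio of the means was 2.40 in F1-Control and 2.85 in F1-HHcy, or 1.81 without replicate 3 of F1-HHcy at Pd21.

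A gene is counted as called, after the criterion used in the study, when the size of its log2 fold change exceeded 0.58 and its unadjusted limma p was under 0.05. By it, 5 of 5 tested class II genes were higher at Pd21 than at Pd7 in F1-Control ovaries, where 14.5% of all 14607 tested genes were called higher, and 5 of 5 in F1-HHcy ovaries, where 8.22% were. With the adjusted p in place of the unadjusted one, 5 of 5 were called in both groups, against 13.4% and 6.77% of all genes. The libraries of Pd21 and Pd7 did not overlap in 5 of the 5 tested genes in F1-Control, against 23.9% of all tested genes. In F1-HHcy this was 5 of 5 against 17.7%. H2-DMa, which stayed under the filter, did not overlap in F1-Control either. The median log2 fold changes of the 5 tested genes were 1.38 and 1.72, beside 0.02 and 0.00011 for all tested genes. Without replicate 3 of F1-HHcy at Pd21, 4 of 5 stayed called in that group, with log2 fold changes of 1.46 ± 0.28 for Cd74, 1.21 ± 0.28 for H2-Aa, 1.10 ± 0.26 for H2-Eb1 and 0.93 ± 0.28 for H2-Ab1, whose limma adjusted p was then 0.064. H2-DMb1 was not called (0.45 ± 0.22, adjusted p = 0.205).

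H2-DMa and Ciita stayed under 1 FPKM in all 18 libraries. By fragments H2-DMa was not scarcer than its partner, with 85 to 303 per library against 29 to 300 for H2-DMb1. Its values divide by 8325 bases, those of H2-DMb1 by 1284. H2-DMa, the alpha subunit of the peptide editor, measured 0.382 to 0.464 FPKM in F1-Control ovaries at Pd3, 0.441 to 0.469 at Pd7 and 0.498 to 0.636 at Pd21, so its Pd21 libraries lay above the younger ones (1.29-fold ratio of the means against Pd7). In F1-HHcy ovaries it measured 0.325 to 0.558 FPKM at Pd3, 0.314 to 0.600 at Pd7 and 0.265 to 0.924 at Pd21, with overlap of all days. Ciita had a highest value of 0.190 FPKM, from 73 fragments in replicate 3 of F1-HHcy at Pd21, and 0.0203 to 0.106 FPKM in the other 17 libraries. Each group overlapped its neighbour in the order of the means, which ran from 0.0492 ± 0.0250 in F1-Control at Pd3 to 0.0966 ± 0.0821 in F1-HHcy at Pd21 (SD, n = 3). In limma-voom on the recovered fragments without a filter, added after seeing the data, Ciita had a log2 fold change at Pd21 against Pd7 of 0.39 (95% confidence interval -0.99 to 1.77) in F1-Control and of 0.48 (-0.93 to 1.89) in F1-HHcy. A rise of the size seen for Cd74 in F1-Control, 1.99 in the same fit, lies outside the first interval and the 2.23 of F1-HHcy outside the second. Fragments of Ciita may be mixed with those of Dexi, so the intervals cannot decide whether Ciita itself rose that much. For H2-DMa, which may be mixed with Brd2, the log2 fold changes were 0.35 (-0.42 to 1.12) and 0.084 (-0.71 to 0.88).

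**Figure D2:**
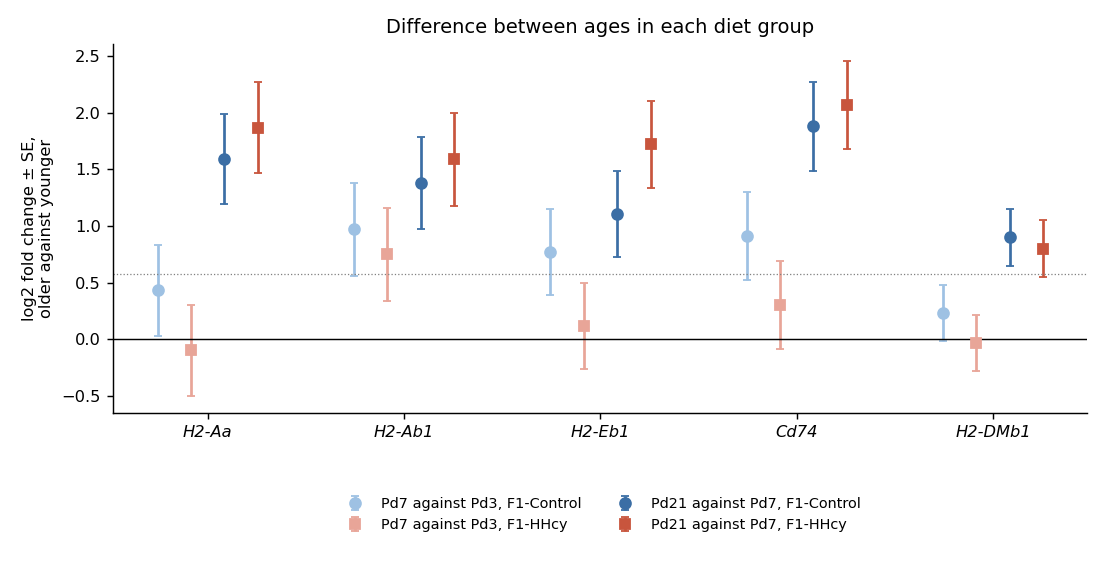
Log2 fold change (± SE, limma on log2(FPKM + 1)) of Pd7 against Pd3 and of Pd21 against Pd7 for the 5 class II genes that passed the filter, in F1-Control (circles) and F1-HHcy (squares), with a dotted line at 0.58. All changes from Pd7 to Pd21 lie between 0.80 and 2.07, those from Pd3 to Pd7 between -0.10 and 0.97.

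The step from Pd3 to Pd7 lay within batch 1 and shares its Pd7 libraries with the comparison above. In F1-Control ovaries H2-Ab1 and Cd74 were called higher at Pd7 (log2 fold changes 0.97 ± 0.41 and 0.91 ± 0.39 by limma), which is 2 of 5 tested genes against 6.76% of all genes, and their adjusted p-values were 0.133 and 0.134. H2-Eb1 had 0.77 ± 0.38 (adjusted p = 0.19), although its Pd7 libraries all lay above those of Pd3. The SE comes from a spread shared by all 6 groups, among them F1-HHcy at Pd21 (SD 11.3 FPKM for H2-Eb1). The SDs of H2-Eb1 in F1-Control were 0.267 FPKM at Pd3 and 0.646 FPKM at Pd7. With the compared groups alone, 3 of 5 tested genes were called higher, beside 934 of 13336 genes. By non-overlap of the libraries, 4 of the 5 tested genes were higher (H2-Aa, H2-Ab1, H2-Eb1 and Cd74), against 16.6% of all tested genes. In F1-HHcy ovaries, where 5.76% of all genes were called higher, none of the 5 tested genes was called by limma or by limma-voom, and none had an unadjusted p under 0.05 in either. The values there ran from -0.10 ± 0.40 for H2-Aa to 0.75 ± 0.41 for H2-Ab1 (adjusted p = 0.289). The 2 calls in F1-Control were lost in limma-voom (adjusted p = 0.255 for H2-Ab1 and 0.27 for Cd74), and both fell away without replicate 1 or 3 of F1-Control at Pd3 or at Pd7 (H2-Ab1 0.82 to 0.98, Cd74 0.72 to 0.89).

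The proportions of the class II transcripts also differed between the ages. Cd74 against the sum of H2-Aa, H2-Ab1 and H2-Eb1, a ratio of FPKM within each library, was 0.593 ± 0.0403 at Pd3 and 0.885 ± 0.0557 at Pd21 in F1-Control ovaries (SD, n = 3), and the libraries of these groups did not overlap. In F1-HHcy ovaries it was 0.607 ± 0.0497 and 0.782 ± 0.164. H2-DMb1 against Cd74 had the opposite order, with 0.287 ± 0.0314 at Pd3 and 0.110 ± 0.0270 at Pd21 in F1-Control and 0.170 ± 0.0542 and 0.0703 ± 0.0286 in F1-HHcy. H2-Aa against its partner H2-Ab1 lay between 1.04 and 1.33 in all 6 libraries of Pd21. At Pd3 it was 1.34 to 2.22 in 5 of 6 libraries and 5.84 in replicate 3 of F1-HHcy, which had the highest H2-Aa of its day (254 fragments) together with the lowest H2-Ab1 (46 fragments) and H2-Eb1 (72 fragments). No test was run on these ratios.

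The second question was whether the maternal diet changed class II expression. None of the 5 tested genes was called on any of the 3 days. At Pd21 the calls turned on a single library. With 3 libraries against 3, an exact 2-sided permutation test of a single gene cannot go below p = 0.1.

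At Pd3 the log2 fold changes of F1-HHcy against F1-Control were 0.26 for H2-Aa (95% confidence interval -0.28 to 0.80), 0.21 for Cd74 (-0.19 to 0.61), 0.14 for H2-Eb1 (-0.39 to 0.68), -0.13 for H2-Ab1 (-0.72 to 0.47) and -0.28 for H2-DMb1 (-0.60 to 0.03). All adjusted p-values were 0.264 or above by limma, and no gene had an unadjusted p under 0.05 by limma or limma-voom. Without replicate 3 of F1-HHcy, H2-Aa had 0.02, H2-Ab1 0.093 and H2-Eb1 0.40 (adjusted p = 0.946, 0.788 and 0.0965), and none was called. By the same criterion 9.74% of the 13277 tested genes were called in either direction that day. H2-DMb1 had its 3 F1-HHcy libraries, 0.791 to 0.945 FPKM, below its 3 F1-Control libraries, 1.15 to 1.38 FPKM. It was the only one of the 5 tested genes, and of all 7, whose groups did not overlap, against 16.1% of all tested genes lower without overlap. It passed the filter at Pd3 and at Pd7 through its F1-Control libraries alone, so a lower value in F1-HHcy was built into its being tested.

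At Pd7 H2-Eb1 was 3.96 ± 0.646 FPKM in F1-Control and 2.49 ± 0.507 FPKM in F1-HHcy ovaries (SD, n = 3), and H2-DMb1 was 1.73 ± 0.644 and 0.836 ± 0.157 FPKM. In both genes every F1-HHcy library lay below every F1-Control library, which held for 2 of the 5 tested genes and for 19.5% of all 13299 tested genes. For H2-DMb1, tested through F1-Control alone, this was built in by the filter, so its values here are a description only. The log2 fold change by limma was -0.51 ± 0.17 for H2-Eb1 (adjusted p = 0.0792) and -0.55 ± 0.19 for H2-DMb1 (adjusted p = 0.0835), just short of the size that a call needs, while 7.35% of all genes were called lower and 16.4% in either direction. With a pseudocount of 0.1 H2-Eb1 was called lower (-0.66, adjusted p = 0.0856, 9.15% of all genes), as it was by limma-voom on the recovered fragments (-0.67, adjusted p = 0.118, 9.11% of all genes). H2-DMb1 had -0.93 and -0.99 in these fits, which is given as a description only, since it passed the filter through F1-Control alone. Cd74 (-0.41 ± 0.25), H2-Ab1 (-0.35 ± 0.21) and H2-Aa (-0.27 ± 0.23) had overlapping groups and adjusted p-values of 0.279 to 0.442. Without the F1-Control library with the lowest Cd74 of that group (5.72 FPKM, replicate 2), Cd74 was called lower (-0.72, adjusted p = 0.0399) together with H2-Eb1 (-0.59, adjusted p = 0.0884), against 5.12% of all genes, and H2-DMb1 did not pass the filter. Replicate 2 also had the lowest control value of H2-Eb1 (3.44 FPKM). Leaving it out makes both differences more negative by construction, so these calls are given as a description only. Without replicate 3 of F1-HHcy at Pd7, H2-Eb1 was called lower (-0.61, adjusted p = 0.0811), against 8.40% of all genes. That library had the highest F1-HHcy value of H2-Eb1 that day (2.99 FPKM). Leaving it out therefore lowers the difference by construction too, and the call is a description only. H2-DMb1 had -0.60 in that fit, again tested through F1-Control alone.

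Pan-leukocyte and blood markers were also lower in F1-HHcy ovaries that day, while other leukocyte lists were mixed. The summed level of 7 pan-leukocyte markers was 26.3 to 51.8 FPKM in F1-Control and 18.7 to 26.1 FPKM in F1-HHcy ovaries at Pd7, with 3 of 6 tested markers called lower (Cd52, Fcer1g and Tyrobp), against 7.35% of all genes, and none of the 7 was at 0 in any library. The sum of 6 blood markers, mostly hemoglobins, was 925 to 5760 and 287 to 502 FPKM. The 16 macrophage markers summed to 59.5 to 79.4 and 54.8 to 67.0 FPKM, where Aif1, C1qa and C1qc were called lower and Lyve1 and Mertk higher. Of 3 tested monocyte markers 2 were called higher and 1 lower (median 0.61), beside 16.4% of all genes in either direction. None of 4 tested dendritic cell markers was called (median -0.0074). The 8 B cell markers summed to 1.01 to 3.62 FPKM in F1-Control and 1.96 to 3.90 FPKM in F1-HHcy. At Pd3 the pan-leukocyte sum was likewise lower in F1-HHcy ovaries (23.3 to 31.4 against 39.8 to 54.8 FPKM), where the macrophage sum was higher (58.5 to 63.2 against 42.3 to 49.2 FPKM). Their part in the class II values was not tested.

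**Figure D3:**
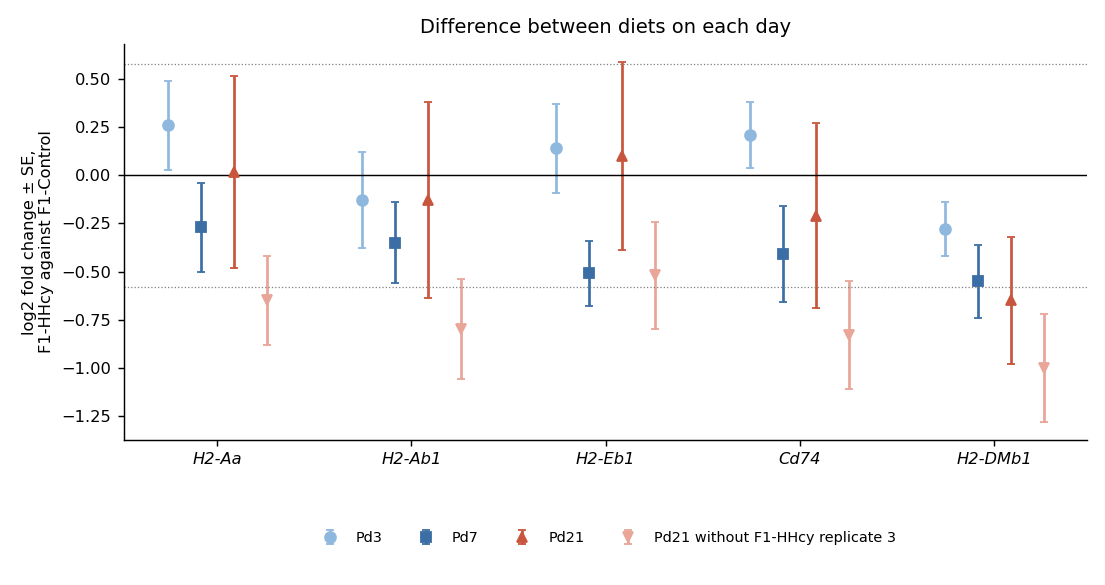
Log2 fold change (± SE, limma on log2(FPKM + 1)) of F1-HHcy against F1-Control at Pd3, Pd7 and Pd21, and at Pd21 without replicate 3 of F1-HHcy, for the 5 class II genes that passed the filter, with dotted lines at 0.58 and -0.58. The Pd21 values run from -0.65 to 0.10 with all libraries and from -1.0 to -0.52 without that library.

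At Pd21 replicate 3 of F1-HHcy stood apart from replicates 1 and 2. Its values against the mean of those 2 were 4.25-fold for H2-Aa, 4.37-fold for H2-Ab1, 4.06-fold for H2-Eb1, 3.58-fold for Cd74, 2.73-fold for H2-DMb1, 2.49-fold for H2-DMa and 3.78-fold for Ciita, while the median ratio over 14582 genes was 0.994. In every one of the 7 genes except H2-DMb1 it was above all 3 F1-Control libraries, and replicates 1 and 2 were at or below the lowest of them. For Cd74 that meant 75.7 FPKM in replicate 3 against 26.9 and 15.4 FPKM in the other F1-HHcy libraries and 29.8 to 45.3 FPKM in F1-Control.

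With all libraries the log2 fold changes at Pd21 were 0.10 ± 0.49 for H2-Eb1, 0.019 ± 0.50 for H2-Aa, -0.13 ± 0.51 for H2-Ab1, -0.21 ± 0.48 for Cd74 and -0.65 ± 0.33 for H2-DMb1, with adjusted p-values by limma of 0.92 or above and no unadjusted p under 0.05 by limma or limma-voom. That day 5.14% of the 13350 tested genes were called in either direction. The 95% confidence intervals were wide, from -1.32 to 0.89 for Cd74 and from -1.12 to 1.16 for H2-Aa, so changes within them were not detectable here. Without replicate 3 of F1-HHcy, Cd74 (-0.83 ± 0.28), H2-Aa (-0.65 ± 0.23), H2-Ab1 (-0.80 ± 0.26) and H2-DMb1 (-1.0 ± 0.28) were called lower, 4 of 5 against 5.10% of all genes, with adjusted p-values of 0.248 to 0.558, and H2-Eb1 had -0.52 ± 0.28 (adjusted p = 1). Replicate 3 was singled out because these genes were high in it, so lower values without it were built in. The 4 calls are given as a description, since the 5.10% covers genes that were not used to choose the library. With all 18 libraries in 1 model, H2-DMb1 was also called lower at Pd21 (-0.65, adjusted p = 0.331), beside 749 of 14607 genes.

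The same library was high in blood and in a part of the leukocyte markers. Its 6 blood markers summed to 997 FPKM, 5.39 times the mean of the other 2 F1-HHcy libraries of that day, with 109 to 554 FPKM in F1-Control, and its pan-leukocyte sum was 47.9 FPKM, 1.87 times that mean, with 27.4 to 42.2 FPKM in F1-Control. Cd52, a glycoprotein of lymphocytes and other leukocytes, reached 19.5 FPKM there against 5.31 to 7.55 FPKM in replicates 1 and 2. Its 8 B cell markers summed to 5.83 FPKM against 3.62 and 3.63, and its macrophage sum of 66.4 FPKM lay within the 58.6 to 80.5 FPKM of F1-Control. The part of these markers in the class II values of that library was not tested.

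The diet effects of the days were then compared with each other in the model of all 6 groups, which share 1 estimate of the spread, F1-HHcy at Pd21 included. None of the 5 genes was called for a more negative diet effect at Pd7 than at Pd3, at Pd21 than at Pd3 or at Pd21 than at Pd7, against 5.28%, 9.04% and 9.72% of all genes, or for a more positive one, and none had an unadjusted p under 0.05 in limma or in limma-voom. The differences for Cd74 were -0.61 (95% confidence interval -1.77 to 0.55) for Pd7 against Pd3, -0.42 (-1.58 to 0.74) for Pd21 against Pd3 and 0.19 (-0.97 to 1.35) for Pd21 against Pd7. Without replicate 3 of F1-HHcy at Pd21, Cd74 (-1.03), H2-Aa (-0.91) and H2-DMb1 (-0.71) were called for a more negative diet effect at Pd21 than at Pd3, 3 of 5 genes against 8.99% of all genes, with adjusted p-values of 0.186 to 0.26. These calls are a description only, since that library was singled out by its high values of these genes.

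By mean level the 6 groups fell into a lower block of Pd3 and Pd7 and an upper block of Pd21 for H2-Aa, H2-Ab1, H2-Eb1 and Cd74. In these 4 genes F1-Control at Pd7 was the highest group of the lower block and F1-Control at Pd21 came next without overlap with it. The 2 diet groups of Pd21 overlapped in all 7 genes. H2-DMb1 was ordered differently: F1-HHcy at Pd7 (0.836 FPKM) and at Pd3 (0.876 FPKM) were lowest, and F1-Control at Pd3 (1.28 FPKM) followed without overlap. F1-Control at Pd7 (1.73 FPKM), F1-HHcy at Pd21 (2.38 FPKM) and F1-Control at Pd21 (4.16 FPKM) came next, each overlapping the group before it. For H2-DMa and Ciita every group overlapped its neighbour in the order.

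Of 16 other class II genes and regulators in the files, 12 were tested at Pd21 against Pd7. In F1-Control 1 was called higher (Nfya, a subunit of the Y box factor NF-Y, 0.98 ± 0.22, limma adjusted p = 0.00346), beside 14.5% of all genes. None was called higher in F1-HHcy, beside 8.22%, and the medians were -0.024 and 0.054. Rfx5, which binds the X box, measured 3.45 to 6.11 FPKM over all libraries and changed by -0.21 ± 0.16 and -0.20 ± 0.16. The lysosomal proteases Ctsl and Lgmn and the thiol reductase Ifi30 had means over the 18 libraries of 167, 34.8 and 37.7 FPKM, above those of the 7 class II genes. Ctss, the cathepsin that trims the invariant chain, was called lower at Pd7 in F1-HHcy ovaries (4.20 ± 0.776 against 7.62 ± 1.89 FPKM in F1-Control, -0.72 ± 0.19, adjusted p = 0.0423). Other members of the class II region were scarce, with H2-Oa and H2-Ob, the subunits of the dimer that holds H2-DM back, at 0 to 2.01 and 0 to 1.78 FPKM, and the beta chain gene H2-Eb2 was at 0 to 0.137 FPKM. The alpha chain gene of I-E, sought by the symbols H2-Ea and H2-Ea-ps, was not among the genes listed for the libraries.

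In the interferon gamma pathway, which acts upstream of Ciita, Ifng itself was at 0 in 13 of 18 libraries and reached at most 0.144 FPKM. Its receptor chains Ifngr1 (17.3 to 37.2 FPKM) and Ifngr2 (35.9 to 82.3 FPKM) and the kinase Jak1 (51.8 to 131 FPKM) were present in all libraries. Of 16 tested genes of this list, 1 was called higher at Pd21 than at Pd7 in F1-Control (Socs1), beside 14.5% of all genes. In F1-HHcy ovaries 5 of 16 were called higher, Ifngr2 among them (0.76 ± 0.15, limma adjusted p = 0.00417), beside the 8.22% of all genes. The medians of the 16 were 0.047 in F1-Control and 0.44 in F1-HHcy. At Pd7, 4 of 16 were called lower in F1-HHcy ovaries, beside 7.35% of all genes. Among them Cxcl10, an interferon-induced chemokine, was at 1.13 ± 0.436 against 3.76 ± 1.07 FPKM (-1.16 ± 0.22, limma adjusted p = 0.0111). The guanylate-binding protein gene Gbp2 was at 19.2 ± 5.52 against 33.5 ± 5.67 FPKM (-0.80 ± 0.22, adjusted p = 0.0454).

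MHC class I molecules present cytosolic peptides on nearly all cells. At Pd3, 2 of 14 tested class I pathway genes were called higher in F1-HHcy ovaries and 0 lower, beside the 9.74% of all genes in either direction. They were B2m, the shared light chain, at 355 ± 62.8 against 203 ± 34.8 FPKM (0.80 ± 0.18, limma adjusted p = 0.0575), and the heavy chain gene H2-D1 at 74.0 ± 33.2 against 30.8 ± 2.62 FPKM (1.15 ± 0.27, adjusted p = 0.0665). At Pd7, 5 of 13 were called lower and 1 higher, beside 16.4% of all genes in either direction, with B2m at 250.1 ± 13.5 against 482 ± 80.7 FPKM (-0.93 ± 0.18, limma adjusted p = 0.0129), and H2-K1, a heavy chain with close paralogs that may share its reads, at -1.44 ± 0.19 (adjusted p = 0.00312). From Pd7 to Pd21 B2m changed by -0.70 ± 0.20 in F1-Control ovaries (adjusted p = 0.0162) and by 0.47 ± 0.20 in F1-HHcy ovaries (adjusted p = 0.111). Among 6 co-stimulatory genes Icosl alone passed the filter in the diet comparisons, with 15.7 ± 2.96 against 5.03 ± 2.75 FPKM at Pd7 (1.55 ± 0.27, adjusted p = 0.00895). Cd80 (0.0306 to 0.176 FPKM) and Cd86 (0.127 to 0.540 FPKM), which mark activated antigen-presenting cells, were low in all libraries.

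Markers of the cells that usually carry class II were then set beside it. The 7 class II genes summed to 19.0 to 32.4 FPKM at Pd7 and 65.5 to 107 FPKM at Pd21 in F1-Control ovaries, while the macrophage markers summed to 59.5 to 79.4 and 58.6 to 80.5 FPKM. Of 13 tested macrophage markers 3 were called higher (Cd14, Lyve1 and Timd4) and 3 lower (Adgre1, Aif1 and Cd68) at Pd21 against Pd7 in F1-Control, with a median of -0.25, and 1 higher and 3 lower in F1-HHcy, with a median of -0.041. The pan-leukocyte markers had 0 higher and 1 lower of 6 in F1-Control and 1 higher (Cd52) in F1-HHcy. Beside these counts and those of the marker lists below, 14.5% of all 14607 tested genes were called higher and 1385 lower in F1-Control. In F1-HHcy 8.22% were called higher and 1414 genes lower. Cd74 against Csf1r, a receptor that marks macrophages and monocytes, was 2.35 ± 0.828 at Pd7 and 11.8 ± 5.03 at Pd21 in F1-Control and 2.01 ± 0.121 and 17.4 ± 13.5 in F1-HHcy (ratio of FPKM, SD, n = 3), without overlap between the days. The 17.4 rests on replicate 3 (33.0), with 9.76 and 9.49 in replicates 1 and 2.

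Of 11 dendritic cell markers 4 were tested, of which Fscn1, an actin bundling gene that many cell types use, was called higher at Pd21 in both diet groups (2.12 ± 0.31 and 1.95 ± 0.31, limma adjusted p = 1.06e-04 and 0.0016) and Zbtb46 lower in F1-Control. Without Fscn1, a sum added after seeing the data, the other 10 amounted to 15.2 to 16.8 FPKM at Pd7 and 11.6 to 13.3 FPKM at Pd21 in F1-Control and to 13.2 to 14.8 and 10.5 to 19.0 FPKM in F1-HHcy. Of these 10, Zbtb46 (5.34 to 12.9 FPKM), Clec10a (0.719 to 4.81) and Batf3 (0.558 to 3.97) were present in all 18 libraries. Flt3 (0 to 0.0619 FPKM), Xcr1 (0 to 0.0981) and Cd209a (0 to 0.242) were at 0 in 2, 5 and 9 of 18 libraries. Clec9a, Itgax, Ccr7 and Siglech reached at most 0.605 FPKM. Of 8 B cell markers 2 were tested, and Ms4a1, the gene of CD20, was called higher at Pd21 in both groups (1.24 ± 0.29 and 1.06 ± 0.29, adjusted p = 0.00438 and 0.0197), from 0.328 ± 0.0343 to 2.36 ± 1.39 FPKM in F1-Control and from 1.01 ± 0.643 to 3.15 ± 1.19 FPKM in F1-HHcy. It passed the filter mostly through libraries of Pd21, so its being called is given as a description. Cd79b, the other tested marker, had -0.027 ± 0.28 and -0.26 ± 0.28 and was not called, with 0.813 and 0.703 FPKM in F1-Control and 0.706 and 0.433 FPKM in F1-HHcy at the 2 ages. Cd79a, which was not tested, had means of 0.353 and 0.550 FPKM in F1-Control and 0.596 and 0.473 FPKM in F1-HHcy. None of the 2 tested T and NK cell markers was called. The libraries held ovary markers throughout, with the oocyte genes Zp3 at 130.1 to 689 and Gdf9 at 33.5 to 549.9 FPKM and the granulosa cell gene Foxl2 at 45.7 to 195 FPKM. The part of these markers in the rise of class II was not tested.

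**Figure D4:**
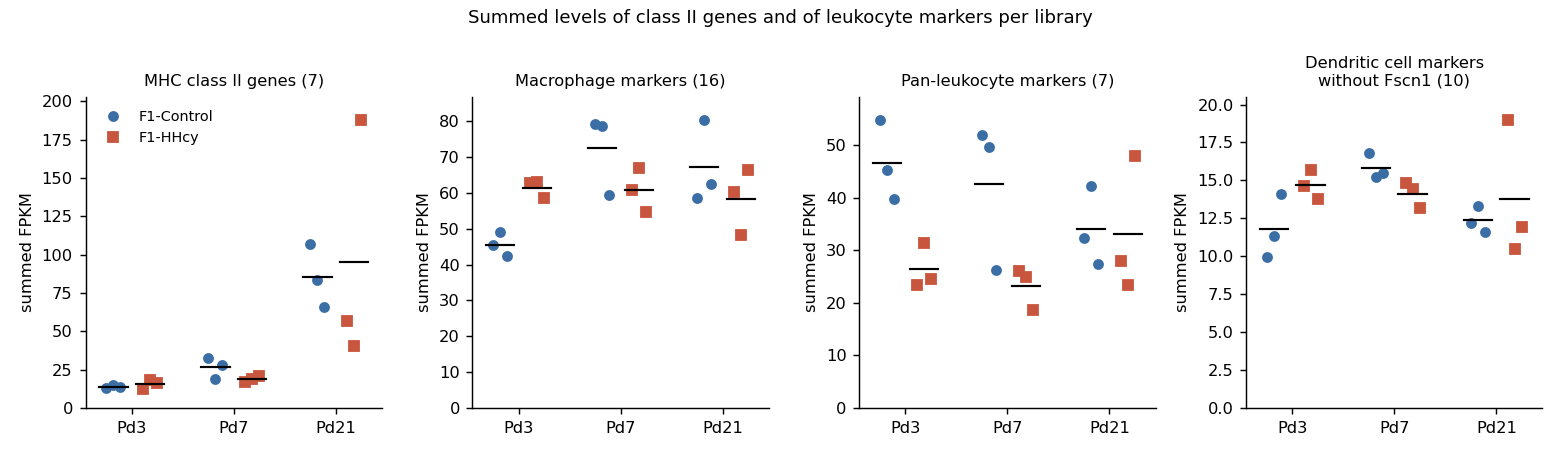
Summed FPKM per library of the 7 class II genes, 16 macrophage markers, 7 pan-leukocyte markers and 10 dendritic cell markers (Fscn1 left out), by day and diet group (circles, F1-Control; squares, F1-HHcy; black line, mean of 3 libraries). Class II sums of 40.3 to 188 at Pd21 lie above all younger libraries, whereas the macrophage sums of 48.4 to 80.5 at Pd21 overlap those of both younger days.

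Across the 18 libraries, the genes most like Cd74 were sought by the correlation of their deviations from the 6 group means of log2(FPKM + 1), over 14606 genes. H2-Ab1 ranked 1 (Pearson's r = 0.87), H2-Aa 5 (0.82), H2-Eb1 13 (0.76) and H2-DMb1 30 (0.70). The 5 genes outside the group that came closest were Fam189a2 (0.87), the complement gene C4b (0.84), Itgb2, the leukocyte integrin beta chain (0.83), Tap1, the class I peptide transporter subunit (0.80), and the checkpoint kinase gene Chek2 (0.78). The deviations leaned on replicates 2 and 3 of F1-HHcy at Pd21, with -1.0 and 1.23 on the log2 scale, and without them r fell to 0.64 for H2-Ab1, 0.49 for H2-Aa, 0.36 for H2-Eb1 and 0.43 for H2-DMb1. It was then 0.72 for Chek2, 0.69 for C4b, 0.67 for Fam189a2, 0.62 for Itgb2 and 0.56 for Tap1, so that Chek2, C4b and Fam189a2 stood above the 4 class II genes. The 4 class II genes had a Spearman's rho over all 18 libraries of 0.50 to 0.78. These correlations are given as a description, since libraries share depth, batch and composition.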

How the data were processed

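Per the labels, poly-A RNA of whole ovaries was sequenced from stranded libraries, and the submitters' notes name FastQC 0.11.9, Trimmomatic 0.39, STAR 2.7.9a, featureCounts 2.0.1, DESeq2 1.36.0 and GRCm38. The authors deposited 1 value per gene and library without naming its unit. The deposited values behaved as FPKM: for 27294 of 27294 genes above 0 in at least 3 libraries, whole fragments were recovered within 0.1 fragment, which gave 33630547 to 39399215 fragments per library and the length behind each gene's values.

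Diets were compared within each day over 6 libraries, and ages and differences of diet effects in 1 model of 6 groups and 18 libraries, with limma 3.58.1 (trend; R 4.3.3) on log2(FPKM + 1) over genes that reached 1 FPKM in 3 or more libraries. A call needed a log2 fold change whose size exceeded 0.58 together with an unadjusted p under 0.05, and Benjamini-Hochberg adjusted p-values over all tested genes are given beside it. Tables were made with Python 3.11.15, pandas 2.3.3 and scipy 1.17.1. The fits were tested on simulated data. The class II genes, the 12 other lists and the tests were chosen with earlier results of these data known. Named from each other list were the 3 genes with the highest mean and any with an adjusted p under 0.05 between diets, and beside Cd74 the 5 genes most like it. Genes named to spell out a count, or as further markers of a cell type, were chosen after their values were seen. Alternatives were another pseudocount, no filter, other libraries in the model, a replicate block, the adjusted p as threshold, another scaling, leaving out mitochondrial and hemoglobin genes, limma-voom on recovered fragments, and leaving out each library. Some genes of the marker and pathway lists are not reported here.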

Additional observations from a re-analysis of the deposited data

How the results depend on the processing

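Of 314 values and counts for the class II genes under other settings, 296 kept their direction and their side of the threshold, 6 became weaker, 12 became stronger and 0 turned, and with a library left out these were 173, 9, 8 and 14 of 204. The count of genes called lower in F1-HHcy at Pd7, 0 of 5, was 2 with a pseudocount of 0.1, beside 9.15% of all genes. It was 2 in limma-voom with the filter, beside 9.11%, and 2 without the filter, beside 2253 of 27626 genes. H2-DMb1 is among the 2 each time, and in the filtered fits it was tested through F1-Control alone. At Pd21 the count was 0, and 1 with all 18 libraries in 1 model, beside 749 of 14607 genes. The 2 genes called higher at Pd7 than at Pd3 in F1-Control became 0 with the adjusted p as threshold. They became 0 in limma-voom with or without the filter. They became 3 with a pseudocount of 0.1, 3 with the compared groups alone and 3 with median-ratio scaling. All genes called higher in these 3 fits were 1359 of 14607, 934 of 13336 and 1174 of 14576. In F1-HHcy 0 became 1 (H2-Ab1) with a pseudocount of 0.1, beside 1072 of 14607 genes. With the compared groups alone it became 1 (H2-Ab1), beside 760 of 13257 genes. With the compared groups alone, 1 gene was called for a more negative diet effect at Pd7 than at Pd3, beside 788 of 13998 genes. The cause of these shifts was not tested. With single libraries left out, the counts ran from 0 to 2 lower at Pd7, from 0 to 4 lower at Pd21, from 0 to 2 higher at Pd7 against Pd3 in F1-Control and from 0 to 1 in F1-HHcy, from 5 to 5 higher at Pd21 against Pd7 in F1-Control and from 4 to 5 in F1-HHcy, and from 0 to 3 lower for the diet effect at Pd21 against Pd3. At the highest counts at Pd7, 672 of 13127 and 1098 of 13077 genes were called lower. At the highest counts at Pd21 and for the diet effect these were 673 of 13191 and 1308 of 14547. At the highest counts for Pd7 against Pd3, 943 of 14540 and 997 of 14582 genes were called higher in F1-Control and 857 of 14575 in F1-HHcy. The directions that turned were of values not called with all libraries. At Pd3 the diet estimates ran from -0.40 to 0.093 for H2-Ab1 and from -0.03 to 0.40 for H2-Eb1. At Pd21 they ran from -0.65 to 0.43 for H2-Aa, from -0.80 to 0.27 for H2-Ab1, from -0.52 to 0.43 for H2-Eb1 and from -0.83 to 0.28 for Cd74. At Pd7 against Pd3 in F1-HHcy they ran from -0.33 to 0.15 for H2-Aa, from -0.14 to 0.29 for H2-Eb1 and from -0.085 to 0.037 for H2-DMb1. H2-DMb1 could not be tested between diets at Pd3 or Pd7 without any of the 3 control libraries of that day. With the replicate number as a block, every count stayed as it was: 5 and 5 called higher at Pd21 against Pd7, 2 and 0 at Pd7 against Pd3, and 0 between diets on each day. The replicate numbers do not pair the libraries, since correlations of same-numbered deviations between the diet groups were -0.149, -0.137 and -0.2 at Pd3, 0.06, -0.109 and 0.087 at Pd7, with -0.159, -0.117 and -0.338 at Pd21. Counting depth limits Ciita (7 to 73 fragments). H2-DMa (85 to 303 fragments over 8325 bases) stayed under 1 FPKM, so no fit with a filter could test it.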
